A study of Mus musculus with 20 samples.

Results

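The abundance of 7 long noncoding RNAs of the brain was examined in cortex libraries of aged APOE4 mice. The RNAs were Malat1, Neat1, Meg3, Rian, Mirg, Miat and Snhg11, taken by gene name from the 23413 genes of the count tables, and all 7 were found and passed the filter on low counts, as did 15660 genes in all. RNA came from the cortex of 20 APOE4 knock-in mice, in which the human allele stands in place of mouse Apoe. Every group carried it, so no group without the allele was compared. All mice were 22 months old, were housed singly, and had eaten either the control diet (CD, "SD" in the sample labels) or the ketogenic diet (KD) from 10 months of age, for 12 months and in equal calories, and were fasted before tissue was taken. Of the females, 5 had the CD and 4 the KD, and of the males 5 had the CD and 6 the KD, with 1 library per mouse. By their library numbers, 10 libraries belong to series S43 and 10 to series S47, each holding mice of all 4 groups, and mice are named here by their animal numbers (E51 and so on).

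These RNAs do not code for proteins, and most act in the nucleus. Malat1 gathers in nuclear speckles, where splicing factors are stored, and Neat1 is the scaffold around which paraspeckle proteins assemble. Meg3, Rian and Mirg lie one after the other in the imprinted Dlk1-Dio3 region and are transcribed from the maternal chromosome, with small nucleolar RNAs carried in Rian and a cluster of microRNAs in Mirg. Miat is a neuronal nuclear RNA that binds splicing factors, and Snhg11 is the host gene of small nucleolar RNAs and is rich in neurons. In total RNA libraries, from which ribosomal RNA is depleted, nuclear transcripts are kept whether or not they carry a poly(A) tail.

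On GRCm38, Malat1 lies at chr19:5795690-5802672 and Neat1 at chr19:5824708-5845478, both on the minus strand. On chromosome 12, Meg3 spans chr12:109541001-109571726, Rian chr12:109603940-109661716 and Mirg chr12:109729764-109749460, all on the plus strand. Miat lies at chr5:112213228-112229395 on the minus strand and Snhg11 at chr2:158375638-158386145 on the plus strand. GENCODE classes Snhg11 as protein coding, whereas RefSeq lists it as a long noncoding RNA. The 13 microRNA genes within Mirg, and 3 microRNA and 4 small nucleolar RNA genes within Rian, have entries of their own in the tables on the same strand, so reads there can belong to either, and the values of Mirg and Rian are uncertain to that extent. Meg3 overlaps 2 microRNA genes of the tables, Mir1906-1 and Mir770, both with 0 reads in every library. Malat1, Neat1, Miat and Snhg11 overlap no other gene of the tables.

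Per kilobase of annotated exon, Malat1 was by far the most abundant, with a median over the 20 libraries of 1266 CPM (counts scaled to the library total) per kb, ahead of Snhg11 at 97.1 CPM per kb. Meg3 followed at 69.7, Rian at 43.3 and Miat at 23.8 CPM per kb. Neat1, at 3.12 CPM per kb, and Mirg, at 2.45 CPM per kb, were the lowest. The ranges over libraries of Neat1 (1.48 to 6.16 CPM per kb) and Mirg (0.763 to 4.3 CPM per kb) overlapped, as did those of Snhg11 (42.8 to 146), Meg3 (24.4 to 119), Rian (31.5 to 50.6) and Miat (7.54 to 52.5), whereas that of Malat1 (430.5 to 2116) stood above all of them. Malat1 had the highest median CPM of all genes in the tables.

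Because Malat1, Meg3 and Snhg11 were the 3 most closely correlated with each other across libraries, their promoter windows are shown for comparison (RefSeq, GRCm38.p6, 250 bases before to 50 bases after the annotated start, read 5′ to 3′ on the gene's strand). A promoter was found for 6 of the 7 RNAs. Capitals mark matches on either strand to the cyclic AMP response element, TGACGTCA, or to its 5-base part TGACG.
Malat1 (minus strand, chr19:5802623-5802922): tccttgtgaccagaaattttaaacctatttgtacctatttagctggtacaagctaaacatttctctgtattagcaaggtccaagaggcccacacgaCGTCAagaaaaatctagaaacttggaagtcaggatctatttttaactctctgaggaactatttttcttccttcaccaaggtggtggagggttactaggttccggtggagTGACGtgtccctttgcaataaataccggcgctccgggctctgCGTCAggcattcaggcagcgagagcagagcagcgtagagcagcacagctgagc
Meg3 (plus strand, chr12:109540746-109541045): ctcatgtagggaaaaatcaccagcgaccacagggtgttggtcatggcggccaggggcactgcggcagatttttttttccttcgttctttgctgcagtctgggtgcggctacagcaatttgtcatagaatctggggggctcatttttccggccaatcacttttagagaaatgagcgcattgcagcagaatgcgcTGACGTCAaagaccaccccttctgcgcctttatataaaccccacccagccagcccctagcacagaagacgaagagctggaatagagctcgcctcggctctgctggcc
Snhg11 (plus strand, chr2:158375463-158375762): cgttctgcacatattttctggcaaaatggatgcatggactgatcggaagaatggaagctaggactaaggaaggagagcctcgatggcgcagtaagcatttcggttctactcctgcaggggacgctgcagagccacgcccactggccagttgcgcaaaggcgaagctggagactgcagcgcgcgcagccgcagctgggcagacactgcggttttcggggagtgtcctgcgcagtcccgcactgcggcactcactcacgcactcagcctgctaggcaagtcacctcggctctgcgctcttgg
The full element stands once in the Meg3 window shown, 57 bases before the start, and is found in 1.79% of the 32851 promoter windows of the reference. Malat1 holds 3 copies of the shorter TGACG, at positions -154, -45 and -3, and 20.8% of windows hold at least 1. The Snhg11 window, like those of Rian, Mirg and Miat and a second Meg3 window, has neither. The Mirg window (chr12:109734731-109735030) follows a RefSeq start inside the GENCODE span of Mirg given above. The sequence at the first base of that span was not searched. Meg3 also has TATAAA at -25 and CCAAT at -100, letters found in 13.6% and 37.4% of windows. These are matches of letters, and no binding was measured.

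Total counts were between 21015275 and 29109990 in series S43 and between 12207161 and 17697342 in S47, so series and depth cannot be told apart. Xist was at 319 CPM or more in the females and at 7.59 CPM or less in the males. The Y-linked Ddx3y was at 164 to 241 CPM in the males and reached 14 CPM in 1 CD female, against a median of 0.19 CPM in that group, and mouse Apoe was at 1.33 to 3.34 CPM throughout. The cortical neuron genes Slc17a7 (150 to 607 CPM) and Tbr1 (28.1 to 98.9 CPM) were present in every library. Markers of striatal spiny neurons summed to 239 to 1169 CPM in 16 libraries and to 2525 to 3791 CPM in KD females E61, E68 and E207 and KD male E59. In E59, choroid plexus markers also summed to 2356 CPM, against 55.3 CPM or less elsewhere. Between the 41 pairs of mice of one group, counts differed by 6.9 to 109 times the sampling noise (chi-square per degree of freedom). No library was therefore a copy of another in its group, and pairs across groups were not compared.

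The 7 RNAs together took between 0.483% and 1.96% of all counts (median 1.23%), of which Malat1 made up 62.2% to 77.2%. Malat1 was at 7635, 8456, 9252, 10480 and 12850 CPM in the CD females and at 5260, 7364, 8324 and 9667 CPM in the KD females. In the CD males it was at 3268, 7340, 9218, 10390 and 14780 CPM, and in the KD males between 3006 and 10460 CPM (median 8352). The diet groups overlapped in both sexes, as they did for all 7 RNAs (2.1% of genes did not overlap in females and 0.217% in males), and both the highest library (CD male E51) and the lowest (KD male E64) were males of series S43.

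The highest and lowest levels of Meg3 were also in males of S43. It was at 1069, 1217, 1291, 1427 and 1642 CPM in the CD females and at 938, 1001, 1229 and 1473 CPM in the KD females. In the CD males Meg3 was at 442, 1050, 1363, 1421 and 2160 CPM, and in the KD males it ranged from 551 to 1454 CPM (median 1199). The lowest values belonged to CD male E66 and to KD males E59 and E64.

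Snhg11, the small nucleolar RNA host, showed the same 3 low libraries. Its levels were 681, 833, 903, 1040 and 1052 CPM in the CD females and 582, 691, 694 and 982 CPM in the KD females. In the CD males Snhg11 was at 365, 819, 822, 1006 and 1242 CPM, and in the KD males between 405 and 1084 CPM (median 872). Again no group stood apart from another.

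Rian was the steadiest of the 7. It stayed between 670 and 923 CPM in the CD females, 757 and 811 CPM in the KD females, 680 and 877 CPM in the CD males and 574 and 863 CPM in the KD males, a 1.61-fold range over all libraries. Mirg, its neighbour on chromosome 12, ranged 5.63-fold, from 5.56 CPM in E66 to 31.3 CPM in KD male E213. Neat1 ranged 4.15-fold, from 30.8 CPM in E64 to 128 CPM in E51. In the CD females Neat1 kept within 57.1 to 67.9 CPM, whereas in the CD males it spread from 43.7 to 128 CPM.

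Miat had the widest range, 6.97-fold. It was at 161, 202, 217, 268 and 310 CPM in the CD females and at 70.1, 81.8, 95.2 and 328 CPM in the KD females. Thus 3 of the 4 KD females lay below every CD female and the other, E227, lay above all of them. In the CD males Miat was at 88.2, 225, 245, 315 and 488 CPM, and in the KD males between 88.3 and 306 CPM (median 223).

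**Figure D1:**
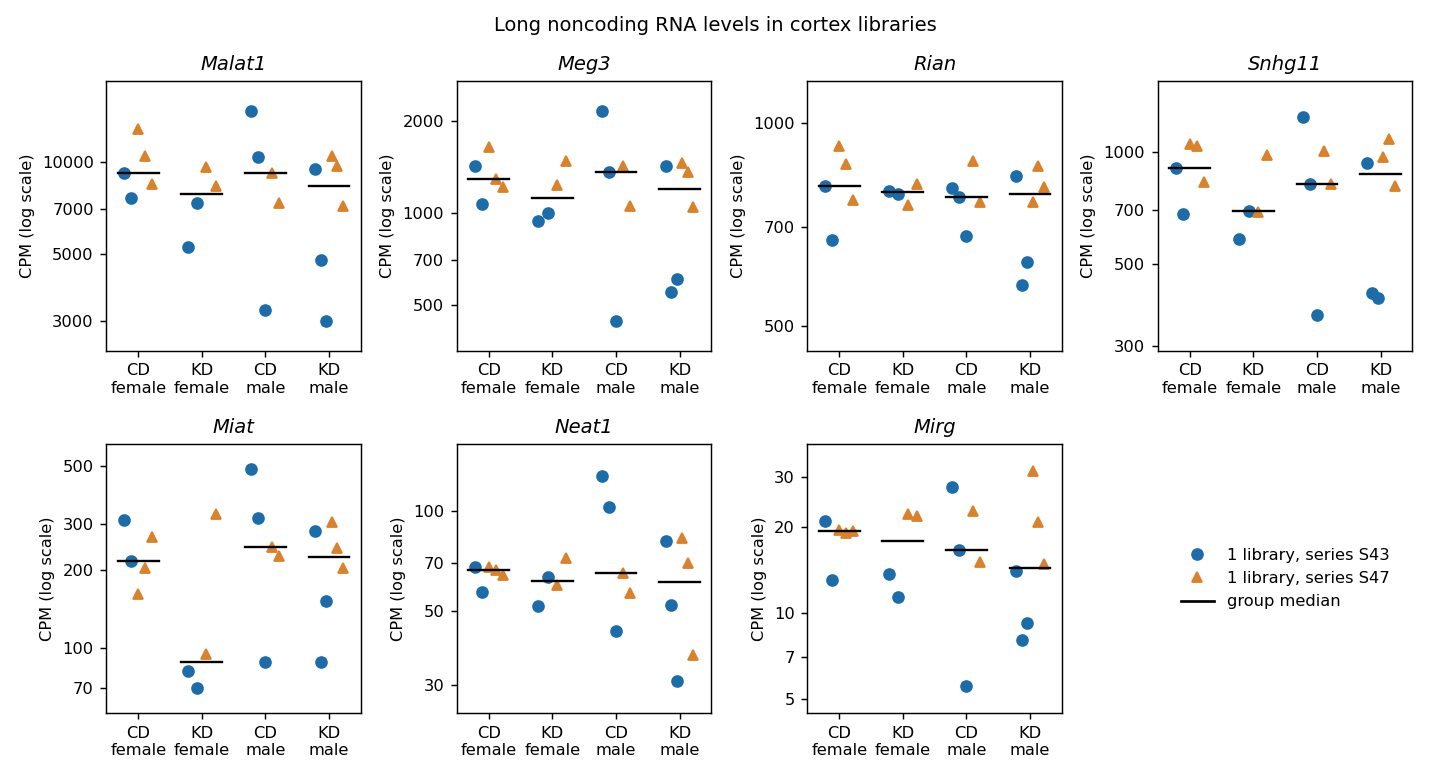
Level of each RNA in CPM on a log axis in the 4 groups, with 1 point per library (circles, series S43; triangles, series S47) and a line at the group median. The groups overlap for all 7 RNAs, Rian varies least, and 3 of the 4 KD females are low for Miat.

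Library-to-library spread was wide for 6 of the 7 RNAs. Spread was measured as the residual SD on the log2 scale, after group and series were fitted, and ranked among the 9639 tested genes with a mean of at least 10 CPM, whose median was 0.209. Miat had a residual SD of 0.735, higher than 98.7% of those genes. It was 0.571 for Malat1 (percentile 96.7), 0.542 for Meg3 (95.9) and 0.539 for Mirg (95.7). Neat1, at 0.483, and Snhg11, at 0.457, stood at percentiles 93.4 and 92.3. Rian was the exception, with 0.162 and percentile 27.9.

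**Figure D2:**
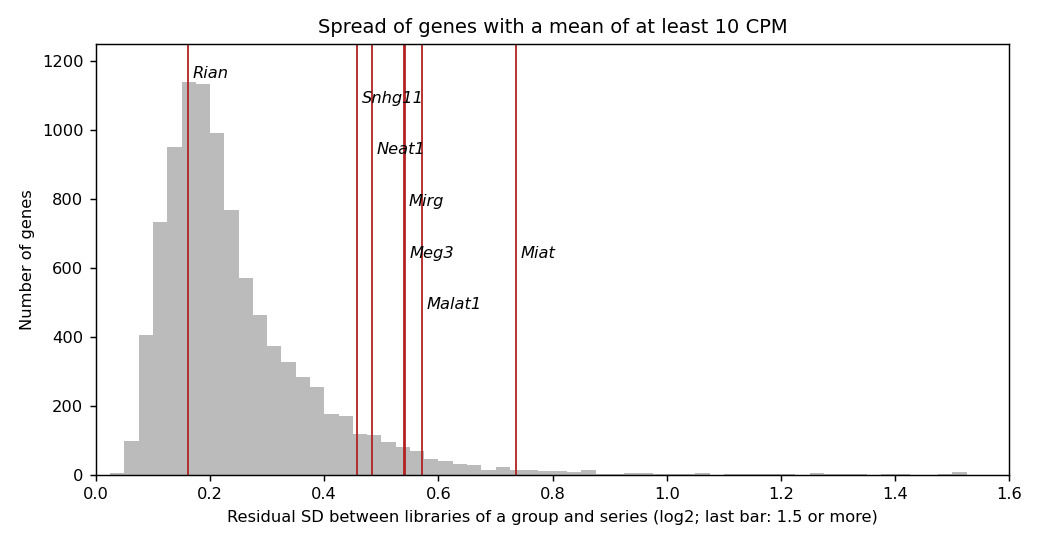
Number of genes (bars) by residual SD between libraries on the log2 scale, for the 9639 genes with a mean of at least 10 CPM, with red lines at the 7 RNAs. Rian lies at 0.162, under the median of 0.209, and the other RNAs lie between 0.457 and 0.735.

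The plain SD over the libraries of a series, with no group term fitted, was unequal between the 2 series. The SD of log2 levels of Meg3 was 0.702 over the 10 libraries of S43 and 0.212 over the 10 of S47, a ratio of 3.31. The corresponding SDs of Malat1 were 0.741 and 0.266 (ratio 2.78). For Snhg11 the ratio was 2.47, for Mirg 2.2, for Neat1 1.97, for Miat 1.96 and for Rian 1.37, against a median of 1.01 over all 9639 genes. The difference in SD was not tested.

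In several libraries the RNAs were low or high together. In CD male E66, KD male E59 and KD male E64, all of series S43, all 7 RNAs were below the series mean, by a mean over the RNAs of -0.737, -0.586 and -0.681 on the log2 scale. In E66, Meg3 deviated by -1.07 and Mirg by -1.09, and Rian by only -0.010. In E64 the largest deviations were those of Malat1, at -1.21, and Neat1, at -1.07. CD male E51 was the opposite, with all 7 RNAs above the series mean, Miat by 1.5, Malat1 by 1.12 and Rian by 0.12. In S47 all 7 RNAs were below the mean in KD male E254, where Neat1 deviated most, by -0.75.

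**Figure D3:**
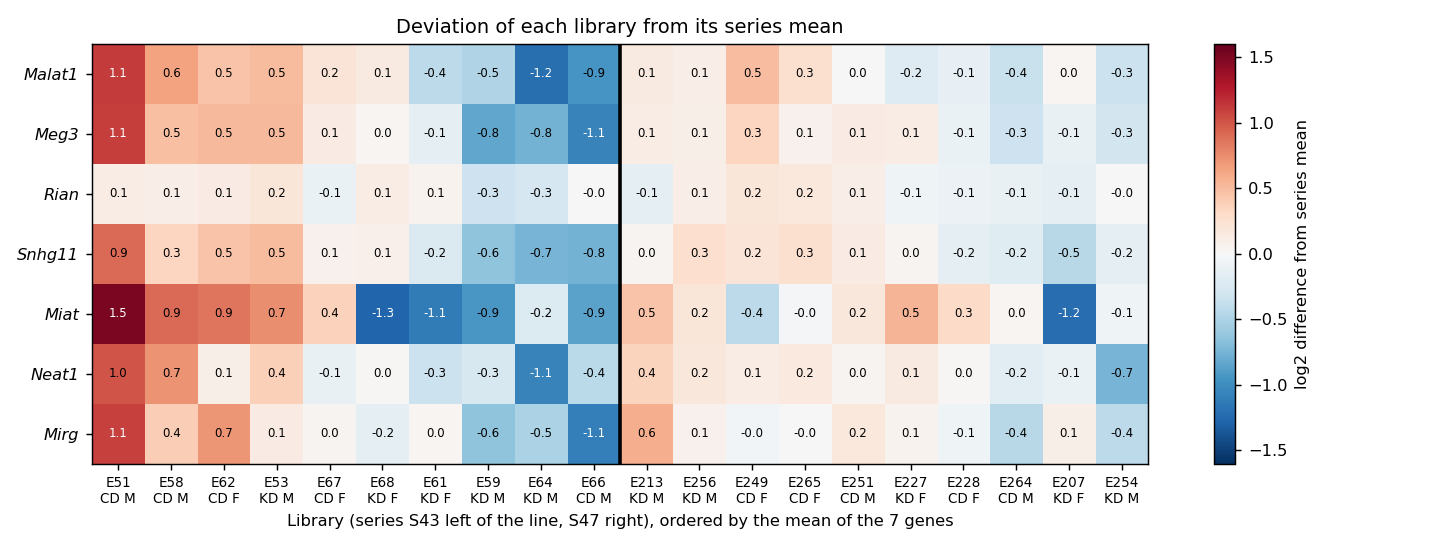
Log2 difference of each RNA (rows) from the mean of its library series in each of the 20 libraries (columns), red above and blue below the mean. E66, E64 and E59 are low for all 7 RNAs and E51 is high for all 7, Rian changes little, and deviations are smaller in S47.

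Neuronal markers did not fall alongside in all 3 libraries. Summed over 12 markers, neurons stood at 12020 CPM in E66, 9970 CPM in E59 and 8645 CPM in E64, within the range of 8645 to 12020 CPM over the 20 libraries that these libraries themselves bounded. Cortical excitatory neuron markers summed to 1040, 983 and 966 CPM in E66, E59 and E64, near their overall median of 957 CPM. Oligodendrocyte markers summed to 4612 CPM in E66, the highest of all libraries, and to 1450 CPM in E64, the lowest. In bulk tissue, fewer cells that make an RNA and less of it per cell cannot be told apart. Without these 3 libraries, a choice made after their values were seen, the residual SD was 0.35 for Malat1, 0.309 for Meg3 and 0.263 for Snhg11 (percentiles 84.1, 78.6 and 70.2), and 0.606 for Miat (97.4). The SD over the rest of S43 was then 0.476 for Malat1, 0.416 for Meg3, 0.368 for Snhg11 and 1.06 for Miat. Those in S47 were 0.266, 0.212, 0.233 and 0.51. Neat1 and Mirg were at 0.477 and 0.442 (S47, 0.303 and 0.294). That of Rian fell to 0.0938, below its 0.132 in S47.

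Most pairs of the 7 RNAs were correlated across libraries. The share of pairs of other genes that would pass was not computed, so the counts here do not show a trait particular to the 7. With series means subtracted, Pearson's r was positive for all 21 pairs (median 0.749), and 19 pairs passed a permutation test at an adjusted p of 0.05. The test shuffled all 20 libraries together and not within series, although the SDs of these RNAs were larger in S43. Its p-values do not allow for that difference. Meg3 and Snhg11 were closest, with r = 0.956 and Spearman's rho = 0.911 over 20 libraries (permutation p = 1e-05 for both, the smallest that 100000 permutations can give, adjusted p = 3.5e-05 and 5.25e-05). Malat1 and Meg3 followed with r = 0.937 (rho = 0.904) and Malat1 and Snhg11 with r = 0.92 (rho = 0.899), at the same permutation p. The 2 pairs that did not pass both held Rian, with r = 0.298 against Miat (permutation adjusted p = 0.203) and r = 0.43 against Mirg (permutation adjusted p = 0.0622). Rian and Snhg11 reached r = 0.749 (permutation adjusted p = 0.000189).

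Within the series, pairs passed the test in S43 and not in S47. Within S43 alone, r had a median of 0.777 and 19 pairs passed. Within S47, 19 of the 21 pairs were positive with a median r of 0.531, and 0 passed after adjustment. There the closest pairs were Malat1 and Meg3 (r = 0.822) and Rian and Snhg11 (r = 0.806), both at a permutation adjusted p of 0.0618, whereas Malat1 and Miat had r = -0.244 and Rian and Mirg r = -0.054. For each pair separately, the 2 libraries farthest from the median of its first RNA, in the order listed at the opening, were left out. Then 18 pairs passed and Meg3 and Snhg11 had r = 0.931. Without E59, E64 and E66, 16 pairs passed with a median r of 0.686, and Meg3 and Snhg11 had r = 0.894.

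Genes most like each RNA were named by r over the 20 libraries, among all genes with a mean of at least 10 CPM, as a description without a test. For Malat1 they were Meg3, the noncoding A330023F24Rik (r = 0.925) and Snhg11. Neat1 was followed by Malat1 (r = 0.888), by Akap8, which encodes a nuclear anchoring protein (r = 0.878), and by the splicing factor gene Srsf5 (r = 0.865). Rian kept other company, namely the splicing kinase gene Prpf4b (r = 0.901), the splicing factor gene Luc7l3 (r = 0.895) and Mbip (r = 0.886). Mirg was closest to Rtl1 (r = 0.933), which lies in the same imprinted region, then to Meg3 (r = 0.914) and A930011O12Rik (r = 0.892). Miat had no other of the 7 among its nearest genes, which were 4933439C10Rik (r = 0.934), the cell-cycle phosphatase gene Cdc25b (r = 0.922) and the receptor kinase gene Ltk (r = 0.915). Meg3 and Snhg11 named each other first, followed by Malat1 and A330023F24Rik (r = 0.914) for Meg3 and by Sfrs18 (r = 0.945) and A330023F24Rik (r = 0.925) for Snhg11.

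The diet comparison asked whether the KD altered these RNAs in each sex. In females all 7 were lower on the KD than on the CD, but none passed edgeR's quasi-likelihood F test at FDR 0.1 with a 1.5-fold change, thresholds that 0.0447% of all genes passed. At an unadjusted p under 0.05 there were 0 of the 7, against 11.4% of all genes, and neither edgeR's likelihood ratio test nor DESeq2 called any. The log2 fold change of Miat was -0.81 (SE 0.456, edgeR adjusted p = 0.546), the largest of the 7, and its 95% interval ran from -1.76 to 0.15. Malat1 had a log2 fold change of -0.38 (SE 0.339, edgeR adjusted p = 0.772) and Snhg11 of -0.31 (SE 0.276, adjusted p = 0.768). Those of Meg3, Mirg, Neat1 and Rian were -0.24, -0.15, -0.12 and -0.072. The interval of Rian, -0.31 to 0.16, was the narrowest, so that a 1.5-fold change lay outside it. The median of the 7 was -0.24, against 0.013 over all genes tested, of which 52.7% were higher on the KD. Because the 7 were correlated across libraries, their shared direction does not amount to 7 separate observations. With a striatal marker score added to the model, Neat1, Meg3, Rian, Mirg and Snhg11 turned to positive values, between 0.0046 (Rian) and 0.17 (Mirg), again with no call.

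In males, too, the 7 RNAs were lower on the KD, where 49.1% of all genes were higher. None was called, nor was any gene of the tables (0%). There were 0 of the 7 at an unadjusted p under 0.05 (3.56% of all genes). Miat had a log2 fold change of -0.44 (SE 0.407) and Neat1 of -0.43 (SE 0.264), Malat1 of -0.36 (SE 0.308) and Meg3 of -0.33 (SE 0.293), all with an edgeR adjusted p of 1. Mirg, Snhg11 and Rian were at -0.26, -0.23 and -0.10. The male values differed between the series. In S43 alone all 7 were negative, from -0.79 for Miat to -0.19 for Rian, whereas in S47 alone 6 were positive, from 0.060 for Neat1 and Meg3 to 0.24 for Mirg, and Rian was at -0.0084. Of the 3 low libraries described above, 2 are KD males of S43, and without the 3 the male log2 fold changes shrank to -0.19 for Malat1, -0.18 for Meg3 and -0.069 for Snhg11. The male values also rested on CD male E51. Without it those of Mirg and Snhg11 were 0.065 and 0.0090, and those of Malat1, Meg3 and Miat were -0.066, -0.022 and -0.082.

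**Figure D4:**
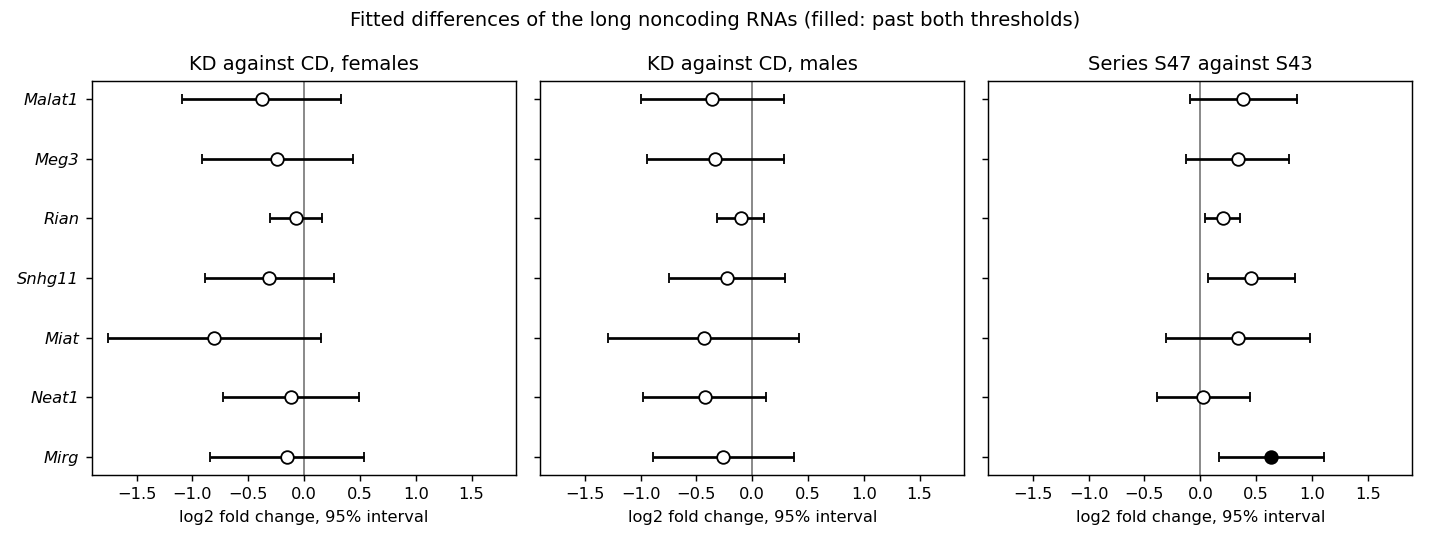
Fitted log2 fold changes (points) with 95% intervals (bars) of KD against CD in females and in males and of series S47 against S43. All 7 diet values are negative in both sexes with intervals that include 0, where 52.7% (females) and 49.1% (males) of all genes are higher. In the series comparison all 7 are positive (48% of all genes), with Mirg (filled) past both thresholds. The RNAs are correlated across libraries, so their signs are not separate observations.

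Each RNA was also tested in each sex with a two-sided exact permutation test. None of the 14 tests passed, with a smallest adjusted p of 0.815. The smallest exact p these designs can reach is 0.00794 in females and 0.00216 in males. After adjustment over the 14 tests, 1 RNA alone at the female minimum would not pass at 0.05. The test therefore could not have singled out 1 RNA in females. The difference in mean log2 CPM of Miat in females was -0.965 (exact permutation p = 0.103), and that of Malat1 was -0.361 (exact permutation p = 0.175). The diet effect did not differ detectably between the sexes. For the interaction, log2 values ran from -0.37 (Miat) to 0.31 (Neat1) and none of the 7 was called, as no gene was (0%), with 0 of the 7 at an unadjusted p under 0.05 (2.14% of genes). Between females and males, 0 of the 7 were called (0.134% of genes) and 0 had an unadjusted p under 0.05 (13.6% of genes). There Miat had a log2 difference of -0.46, lower in females (edgeR adjusted p = 0.507), and the others lay between -0.12 and 0.038.

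Miat was low in the libraries with the highest striatal marker sums. It was at 81.8 CPM in E61, 70.1 CPM in E68, 95.2 CPM in E207 and 88.3 CPM in E59, with sums of 2525 to 3791 CPM. The only other library as low was E66, at 88.2 CPM with striatal markers at 350 CPM. Both E66 and E59 were below the series mean for all 7 RNAs. CD female E249, next in striatal markers at 1169 CPM, had the lowest Miat of the CD females. Malat1 was at 5260 CPM in E61, 7364 CPM in E68 and 4778 CPM in E59, below its overall median of 8837 CPM. In E207 and E249 Malat1 was above that median, at 9667 and 12850 CPM. In E61, E68, E207 and E59, Snhg11 was at 582, 694, 691 and 417 CPM (overall median 828). Meg3 was at 938, 1001, 1229 and 551 CPM there (overall median 1260). Against the series means, Miat deviated by -1.12, -1.27, -1.22 and -0.929 on the log2 scale in these libraries. Snhg11 deviated by -0.235, 0.0871, -0.45 and -0.638, and Meg3 by -0.139, 0.0251, -0.124 and -0.83. In E68, Snhg11 and Meg3 were thus not low for their series. E227, the KD female with high Miat, had striatal markers at 344 CPM, near the overall median of 336 CPM.

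Among the 14 striatal markers, all were higher in KD than in CD females, by a median log2 fold change of 2.1 (0 called). Of 9 cortical excitatory neuron markers, 8 were lower, by a median of -1.01 (0 called). Of all genes, 0.0447% were called in females. No marker of either list was at 0 in every library. With the striatal marker score in the model, the log2 fold change of Miat in females was -0.057 (edgeR adjusted p = 0.985), and those of Malat1 and Meg3 were -0.27 and 0.056. Without E227, Miat was called in females, with a log2 fold change of -1.54 (edgeR adjusted p = 0.0491), and between the sexes, at -0.81 (edgeR adjusted p = 0.0748). Within S43 its female log2 fold change was -1.83 and within S47, which holds E207 and E227 as its KD females, -0.068. Striatal markers were high in 3 of the 4 KD females, so their level and the diet cannot be told apart in females, and why they were high was not tested.

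**Figure D5:**
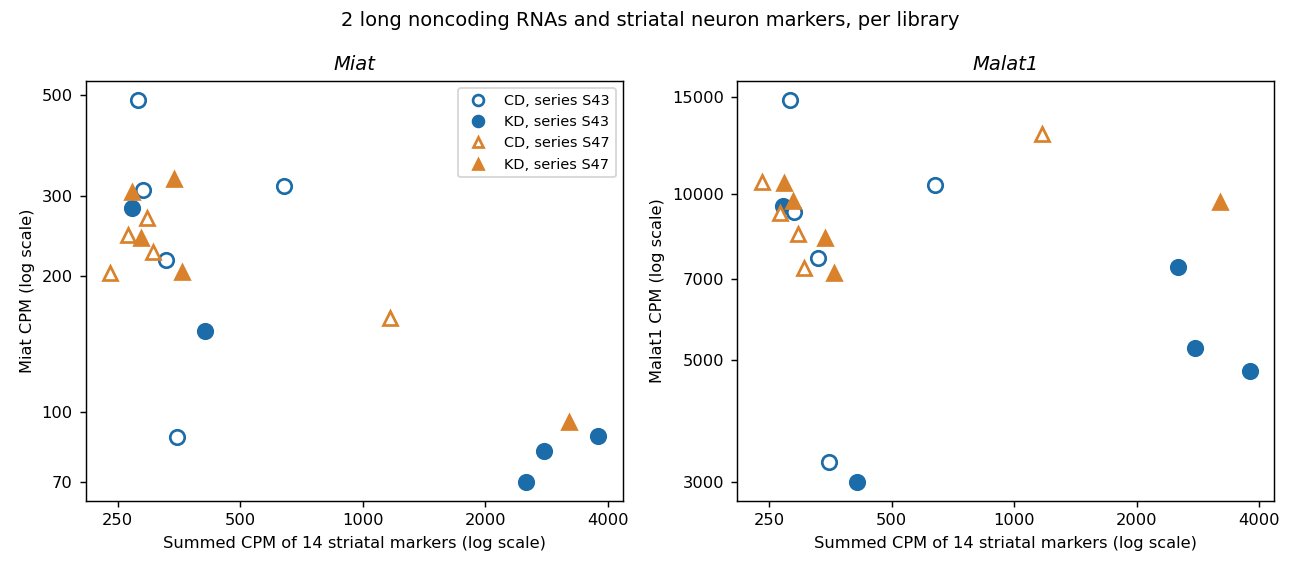
Miat (left) and Malat1 (right) in CPM against the summed CPM of 14 striatal markers, both on log axes, with 1 point per library (filled, KD; open, CD; circles, S43; triangles, S47). The 4 libraries at 2525 CPM and above lie between 70.1 and 95.2 CPM for Miat, whereas Malat1 spans 4778 to 9667 CPM there.

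The library series were compared because every group had mice in both. All 7 RNAs were higher in S47 than in S43, as were 48% of all genes. Of the 7, 1, Mirg, passed both thresholds, which 7.24% of all genes did. Mirg was between 5.56 and 27.7 CPM in S43 (median 13.4) and between 14.9 and 31.3 CPM in S47 (median 20.2), a log2 difference of 0.64 (SE 0.224, edgeR adjusted p = 0.0458). Snhg11, at 0.46 (SE 0.186, edgeR adjusted p = 0.0807), and Rian, at 0.20 (SE 0.0748, edgeR adjusted p = 0.06), passed FDR 0.1 only, as 33.2% of genes did. These 3 RNAs were also those with an unadjusted p under 0.05 (37.9% of genes). Malat1, Miat and Meg3 had log2 differences of 0.39, 0.34 and 0.33 with intervals that included 0, and Neat1 was at 0.026. The call of Mirg was lost without E59, E64 and E66 (0.37, edgeR adjusted p = 0.171), and also without E66, E59, E64 or E213 alone (0.53 to 0.58). The series also hold separate blocks of animal numbers, E51 to E68 in S43 and E207 to E265 in S47. Whether they differ in anything else is not given in the labels.

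Mirg carries a cluster of microRNA hairpins, and reads on those were counted separately. Mature microRNAs are too short for these libraries, so the counts reflect hairpins or their precursor. Of 13 hairpin genes, 9 passed the filter, and the most abundant were Mir382 (median 2.37 CPM), Mir134 (2.2 CPM) and Mir453 (2.15 CPM), followed at lower levels by others such as Mir154 (0.968 CPM). The mature sequences of Mir382, Mir134, Mir453 and Mir154 (RefSeq, GRCm38.p6) are given 5′ to 3′ to show what these precursors yield, with the seed, bases 2 to 8, in capitals.
mmu-miR-382-5p: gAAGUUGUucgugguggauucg
mmu-miR-134-5p: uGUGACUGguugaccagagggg
mmu-miR-453: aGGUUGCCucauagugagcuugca
mmu-miR-154-5p: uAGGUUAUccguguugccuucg
The 4 seeds differ from each other, and that of mmu-miR-453 is shared by mmu-miR-496a-5p, also encoded within Mirg. mmu-miR-134-5p, at chr12:109734145-109734166, is known in neurons for its part in the growth of dendritic spines.

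Hairpin reads followed the host. The 13 genes summed to 3.99 CPM in E66, 4.79 CPM in E64 and 5.48 CPM in E59, the lowest of all libraries, and to 23.7 CPM in E213, where Mirg itself was highest. Across the 20 libraries, with series means subtracted, the hairpin sum and Mirg had r = 0.954 and rho = 0.932 (permutation p = 1e-05 for each, the smallest possible). The correlation was 0.968 within S43, 0.89 within S47 and 0.908 without the 2 libraries farthest from the median of the hairpin sum. Because these reads come from the same transcript and could have been counted for either gene, the 2 values are not independent. Reads on the 3 hairpins within Rian summed to between 0.443 and 4.42 CPM.

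Other genes of the same pathways were read from lists. In the Dlk1-Dio3 region, 9 other genes were tested, and 0 were called for diet (0.0447% of all genes in females and 0% in males). In each sex 4 of the 9 were higher and 5 lower. Between the series 3 of them were higher in S47 and passed both thresholds (7.24% of all genes), the small nucleolar RNA genes AF357426 (log2 difference 1.53), AF357355 (1.91) and AF357425 (1.41). AF357425 lies within Rian. The 8 neighbours of Neat1 and Malat1 were all lower in S47, the direction opposite to Malat1, with 0 passing both thresholds and a median of -0.35.

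No gene for the proteins of speckles and paraspeckles was called for diet, against 0.0447% of all genes in females and 0% in males. Of the 21 genes of paraspeckle proteins, which assemble on Neat1, and the 24 of nuclear speckle and splicing proteins, 0 were called for diet in either sex, with medians between -0.066 and -0.0093. Between the series, 0 of the paraspeckle genes and 1 of the speckle list passed both thresholds (7.24% of all genes). The latter was Rbfox3, which encodes a neuronal splicing factor and was lower in S47 (log2 difference -0.79). At FDR 0.1 alone, which 33.2% of all genes passed, there were 14 of the 24 speckle genes, 9 higher in S47 (Son 0.41, Srrm1 0.53) and 5 lower. There were 8 of the 21 paraspeckle genes, a share near that of all genes, with Cpsf6 (0.58) and Sfpq (0.55) higher and Dazap1 (-0.38) and Smarca4 (-0.46) lower. Of the 19 genes of RNA decay and microRNA processing, 0 were called for diet. Between the series 1 passed both thresholds (7.24% of all genes), Smg1 of nonsense-mediated decay, which was higher in S47 (log2 difference 0.84).

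A list of 46 other long noncoding RNAs had 0 calls for diet, against 0.0447% of all genes in females and 0% in males. On the KD, 28 were lower and 18 higher in females (median -0.11, 0 called), and the same numbers held in males (median -0.050, 0 called). Between the sexes 1 was called (0.134% of all genes), Xist, the RNA that silences the second X chromosome, which was higher in females. Between the series 37 were higher and 9 lower in S47 (median 0.27), where 48% of all genes were higher, and 9 passed both thresholds (7.24% of all genes), all higher. The 4 of smallest p were Kcnq1ot1 (log2 difference 2.32) of an imprinted region, Ftx (1.64) of the X inactivation centre, C230004F18Rik (1.03) and A330023F24Rik (1.19), which also followed Malat1, Meg3 and Snhg11.

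Marker lists of the main cell types gave 0 calls for diet in either sex, against 0.0447% of all genes in females and 0% in males. In females, the median log2 fold changes on the KD were -0.14 for neurons (12 markers), 0.17 for astrocytes (9), 0.25 for oligodendrocytes (10), 0.40 for microglia (10), 0.18 for endothelial cells (8) and 0.22 for the 6 choroid plexus markers tested. In males they were -0.096 for neurons, 0.062 for astrocytes, -0.41 for oligodendrocytes, 0.089 for microglia, -0.018 for endothelial cells and 2.12 for choroid plexus, the last with 1 KD male (E59) far above the rest. Male cortical excitatory and striatal markers had medians of -0.19 and 1.44. The part of these differences in the levels of the 7 RNAs was not tested.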

How the data were processed

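Cortex RNA of 20 APOE4 mice was sequenced by the authors as stranded total RNA libraries (500 ng of RNA, 50-bp read pairs). Per the labels, reads were aligned to mm10 with STAR, and the deposited values are counts of reads per gene without normalization. The versions, the gene annotation and the strand counted are not given in the sources used here. The 7 RNAs, the gene lists and the tests were chosen with earlier results of these data known.

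CPM were computed from these counts and each library's total. Differences were tested in R 4.3.3 with edgeR 4.0.16 (quasi-likelihood F test, robust, upper-quartile scaling, filterByExpr), in 1 fit of all 20 libraries with group and library series as terms and Benjamini-Hochberg adjustment over 15660 genes. Calls needed FDR 0.1 and a 1.5-fold change. The scaling followed the study's methods, and its RUVg step was run as an alternative, with all but the 5000 genes of smallest p as controls. Alternatives were TMM and DESeq2 scaling, no filter, no series term, each sex or series alone, the likelihood ratio test, DESeq2 1.42.0, a striatal marker score as a covariate, and libraries left out. The fit was tested on simulated data. Correlations used log2 upper-quartile values, or log2 CPM for the hairpins, and 100000 permutations in numpy that ignored series. Coordinates came from GENCODE and sequences from RefSeq.

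Genes named are the 7 RNAs, list members past a threshold (at most 4 of smallest p each way), the 3 genes most like each RNA, the label-check genes, and, chosen after their values were seen, the cortical genes Slc17a7 and Tbr1 and the hairpins of Mirg. At 12207161 counts or more per library, Mirg, the lowest of the 7, had at least 138 reads, and intervals cover the spread between mice as well as counting error.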

Additional observations from a re-analysis of the deposited data

Results flagged for a closer look

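One value stood apart within its group. Among the CD females, Mirg was at 19.14 to 21.03 CPM in 4 mice and at 13.01 CPM in E67, and the gap of E67 to the next library was 0.803 of the range of the group on the log2 scale, above the limit for 5 samples. Of the 28 combinations of RNA and group examined, 1.4 would exceed the limit by chance. E67 belongs to series S43, in which 8 of the 10 libraries, E67 among them, were below the lowest of the other 4 CD females. A technical or biological origin was not tested.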

How the results depend on the processing

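No call for diet in males or for the interaction changed under any alternative run. In females and between the sexes, 0 of the 7 RNAs were called. Without the 4 libraries E59, E227, E228 and E249, 1 (Miat) was called in each (log2 fold change -1.62 in females, -0.855 between the sexes). Those 4 include E227, the KD female with high Miat (328 CPM), and E249, the CD female with the lowest (161 CPM). That call is therefore not independent of the Miat values. Leaving out 1 library at a time gave 0 to 1 called in each, with 1 only without E227. Between the series, 1 was called, 0 with the striatal marker score or without E59, E64 and E66, 3 at FDR 0.1 alone, and 0 to 1 when 1 library was left out. Of the 21 correlations 19 passed, and 0 did within S47. Cause was not tested for any of these.

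Signs turned as follows, in no case with a call. In females with the striatal score, log2 fold changes were 0.016 (Neat1), 0.056 (Meg3), 0.0046 (Rian), 0.17 (Mirg) and 0.0094 (Snhg11), and that of Miat for the interaction was 0.27. RUVg with 2 factors gave 0.16 for Mirg in females and 0.17 for Miat between the sexes. In S43 alone Rian was at 0.058 in females. In S47 alone Mirg was at 0.12 in females, and the male values were 0.14 (Malat1), 0.060 (Neat1), 0.060 (Meg3), 0.24 (Mirg), 0.096 (Miat) and 0.074 (Snhg11). The series difference of Neat1 was -0.047 without E59, E227, E228 and E249, -0.027 with the striatal score and -0.19 without E59, E64 and E66, which also left Rian at 0.013 in males. Within S47, r was -0.244 for Malat1 and Miat and -0.054 for Rian and Mirg. With 1 library left out, Mirg ran from -0.20 to 0.036 in females and -0.45 to 0.065 in males, Snhg11 from -0.40 to 0.0090 in males, and Neat1 from -0.068 to 0.11 between the series.

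No paired analysis was possible because the numbers in the labels name animals, and each animal is in 1 group. With 4 to 6 mice per group and the spread given above, only Rian had 95% intervals in the diet comparisons narrower than a 1.5-fold change either way. Series, depth and block of animal numbers cannot be told apart. E59, E64 and E66 were left out together after their values had been seen.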
